A study of Mus musculus with 6 samples.

Results

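The Wnt ligands of the ureteric bud are the 6 genes Wnt11, Wnt9b, Wnt7b, Wnt6, Wnt4 and Wnt5a, taken by symbol from the 17189 genes of the count table. All 6 were listed, and each passed the filter on low counts with at least 89 counts in every library. The ureteric bud is the epithelial tube that branches into the collecting system of the kidney. Fluorescence-sorted cells of this lineage from E16.5 mouse embryos, at a late embryonic stage, were sequenced as 3 control and 3 conditional knockout (cKO) libraries. Control embryos carried the Hoxb7Cre-GFP transgene and were Ash2l F/+, with 1 floxed allele, so they also express Cre recombinase and can lose that allele in bud cells. Embryos of the cKO group carried the same transgene and were Ash2l F/F, with both alleles floxed. The Hoxb7 promoter drives Cre in the ureteric lineage, and all 6 libraries are listed as untreated. ASH2L is a core subunit of the enzyme complexes that methylate histone H3 at lysine 4, and the series asks how its loss in the bud affects branching and signalling by the receptor RET. The replicates are numbered as biological, but no source used here says whether a library is 1 embryo or a pool. P-values therefore measure the spread between these libraries.

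Wnt proteins are secreted, lipid-bearing ligands. They bind Frizzled receptors together with LRP5 or LRP6 to stabilise beta-catenin, or with other co-receptors to direct cell polarity and movement. In the kidney the bud and the mesenchyme around it signal to each other through them: WNT11 from the bud tips sustains expression of the RET ligand GDNF in the mesenchyme, WNT9B from the bud stalk starts nephron formation, and WNT4 in the induced mesenchyme carries that process on. WNT7B, from the stalk, shapes the medulla, WNT6 is another bud ligand, and WNT5A acts mainly through beta-catenin-independent routes.

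Library totals ranged from 9620235 to 10538314 counts. Ash2l had 1624 to 1933 counts in controls and 214 to 451 in cKO libraries, below every control (edgeR log2 fold change -2.43, SE 0.284, adjusted p = 0.00786). The sort held ureteric cells by its markers: 10 ureteric epithelium genes summed to 8796 to 9644 CPM (counts scaled to a common library size and composition) in controls and 5412 to 6312 CPM in cKO, where 4 of the 10 fell and none rose. For this and the marker counts that follow, 3.59% of all genes tested fell and 3.52% rose. Markers of early nephron structures summed to 843 to 927 CPM in controls and 1753 to 2164 CPM in cKO, and 2 of 6 tested rose. Most of that sum was Ccnd2, a cyclin gene that other cells also express. Smooth muscle markers summed to 4.40 to 10.5 CPM in controls and 104.1 to 203 CPM in cKO, and all 3 tested rose. Those 3 were Acta2, Tagln and Cnn1. Myh11, also on the list, was not tested, with 0, 6 and 2 counts in the controls and 6, 0 and 139 in the cKO replicates. Apart from Tagln, the top gene of the list, they were named after their values were seen. Which cells made these transcripts was not tested. Stroma markers stayed between 2.19 and 23.9 CPM in all libraries, endothelium markers at or below 5.38 CPM and immune markers between 41.2 and 74.5 CPM. Cap mesenchyme markers, of the progenitors that surround the tips, summed to 11.1 to 16.0 CPM in controls and 19.7 to 26.3 CPM in cKO, with no overlap, and none of 4 tested was called. Their top gene Cited1 stood at 4.90 ± 1.32 and 14.3 ± 3.05 CPM (SD, n = 3 each, edgeR adjusted p = 0.111) and rose without cKO replicate 3 (log2 fold change 1.35, SE 0.358, adjusted p = 0.0123). The list did not move together. With 6 libraries the log2 fold changes of Osr1, Itga8 and Crym were -1.24, -0.06 and 0.13. Six2, Eya1, Meox1 and Gdnf were not tested and had at most 27 counts in any library. The genes besides Cited1 were named after their values were seen. Podocyte markers summed to 6.68 to 10.5 CPM in controls and 21.3 to 55.7 CPM in cKO (1 of 3 tested rose), and tubule markers to 6.75 to 12.6 and 25.7 to 38.3 CPM (none of 2 called). Genes of principal cells, the water-transporting cells of the duct, summed to 716 to 1122 CPM in controls and 380 to 473 CPM in cKO, and 3 of 6 fell. No marker was at 0 in all 6 libraries. The part of these shifts in the values of the ligands was not tested. The library cKO replicate 3 stood apart: of 11738 genes above 10 counts in all the rest, 1453 were at 0 there, while the same measure found 3 genes or fewer elsewhere. None of the 6 ligands was among them. Results are therefore also given without that library. The sorted cells were measured in bulk, so fewer cells of a type and less RNA per cell cannot be told apart.

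Of the 6 ligands, Wnt11 and Wnt5a fell in cKO cells, Wnt6 rose, and Wnt9b, Wnt7b and Wnt4 were not called. A call means an adjusted p under 0.05 in edgeR's quasi-likelihood test, adjusted over all 13047 genes tested. By that rule 3 of the 6 ligands were called, where 7.11% of all tested genes were called, 3.59% down and 3.52% up. The groups did not overlap for 4 of the 6, Wnt11, Wnt6, Wnt5a and Wnt9b, against 37.4% of all tested genes. Without cKO replicate 3 the same 3 ligands were called in the same directions, while the share of all genes called was 28.5%.

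**Figure D1:**
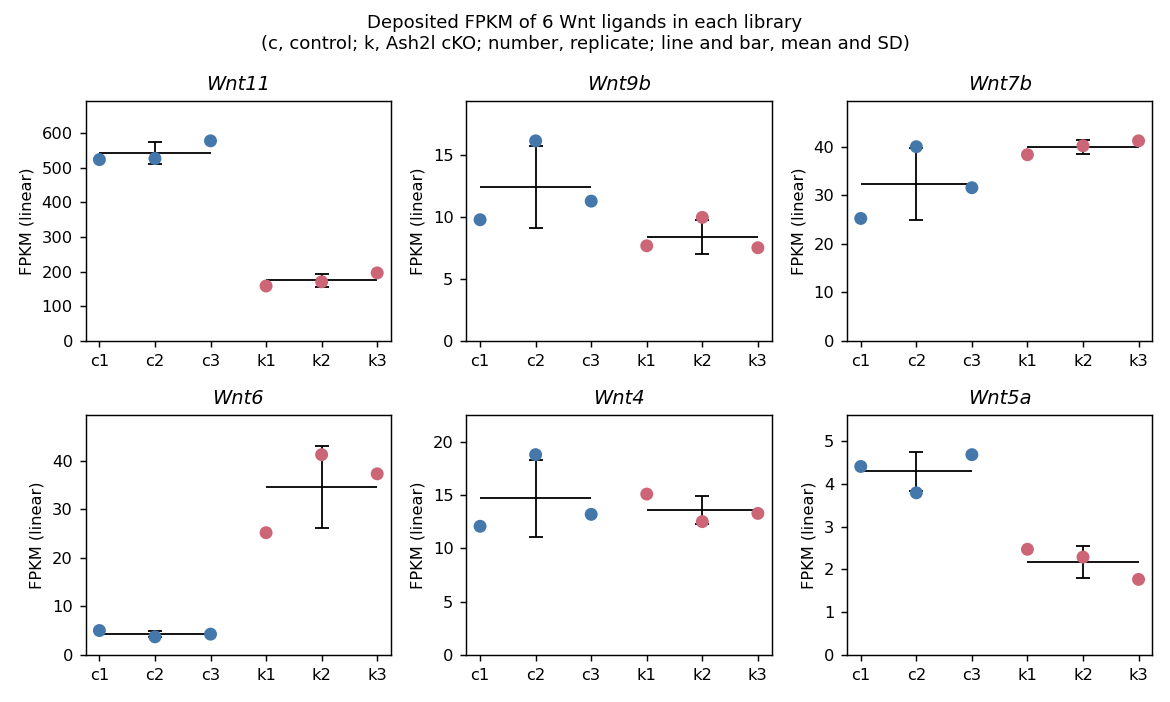
Deposited FPKM (reads scaled for gene length and library size) of each ligand in the 6 libraries, on a linear axis from 0 with its own scale per panel; blue points are controls (c1 to c3), red points cKO (k1 to k3), and lines with bars are the mean and SD of 3 libraries. Wnt11 and Wnt5a are lower and Wnt6 is higher in every cKO library, while Wnt7b and Wnt4 overlap between the groups.

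Wnt11, the tip ligand that belongs to the feedback between RET and GDNF, had the highest level of the 6. Its counts (Entrez Gene 22411) were 12094, 12374 and 13537 in the controls, replicates 1 to 3, and 3493, 3669 and 4304 in the cKO libraries, replicates 1 to 3. Every cKO library was therefore below every control, with no overlap and little spread inside either group. Controls averaged 1229.5 ± 81.5 CPM and cKO libraries 386.3 ± 38.2 CPM (SD, n = 3 each), which is 3.18-fold lower in cKO (log2 fold change -1.67, SE 0.105, edgeR adjusted p = 0.00341). Ordered by p-value, Wnt11 was number 4 of the 13047 genes tested. The call held without each library in turn, with a fold change between -1.76 and -1.62 and an adjusted p of at most 0.0317, reached when control replicate 3 was left out.

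Other tip genes were set beside Wnt11. Ret, the receptor, averaged 635 ± 114 CPM over controls and 294 ± 103 CPM over cKO libraries (edgeR log2 fold change -1.11, SE 0.283, adjusted p = 0.0666), and its co-receptor Gfra1 fell with a log2 fold change of -0.99 (SE 0.157, adjusted p = 0.0176). The call of Gfra1 held in 2 of 6 tests with a library left out, those without cKO replicate 2 or 3, and its highest adjusted p was 0.0863, without control replicate 3. Ret was called without cKO replicate 3 (-0.86, SE 0.138, adjusted p = 0.000497). Wnt11 was then set against the mean of 10 tip markers, Ret and Gfra1 among them, within each library, which makes the value independent of library scaling. The log2 ratio of Wnt11 to these markers was 2.84, 2.75 and 2.60 in control replicates 1, 2 and 3, and 1.25, 1.04 and 1.46 in the cKO replicates. The groups did not overlap, and the mean ratio was 1.48 log2 units lower in cKO, so Wnt11 was lower relative to the average of these tip genes as well (exact two-sided permutation p = 0.1, the smallest that 3 against 3 libraries allow, and 0.12 after adjustment over 6 ratios). Of the 10 tip markers 2 fell and 1 rose, where 3.59% of all genes tested fell and 3.52% rose.

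Wnt6, a ligand of the bud epithelium, moved the other way and by more. Its counts (Entrez Gene 22420) were 118, 89 and 102 in the controls, and 563, 900 and 830 in the cKO replicates. The lowest cKO library was far above the highest control. Scaled, the controls averaged 10.01 ± 1.56 CPM and the cKO libraries 77.2 ± 17.6 CPM (SD, n = 3 each), 7.71-fold more (log2 fold change 2.95, SE 0.258, edgeR adjusted p = 0.00564). Wnt6 was number 27 of the 13047 genes by p-value. Its call also held without each library in turn (2.81 to 3.12, highest adjusted p 0.0419, without control replicate 3).

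The sequences before the start sites of Wnt11 and Wnt6 are shown because these are the ligands with the strongest calls, in opposite directions. They are the 250 bases before the RefSeq start, 5′ to 3′ on the gene's strand, from build GRCm38.p6, matched by gene symbol. The build named for the counts is GRCm39, so these positions are not those of the counted reads. Wnt11 has 2 listed starts, at chr7:98834862-98835111 (+ strand, upstream window) and chr7:98838595-98838844 (+ strand), and Wnt6 has 1, at chr1:74771642-74771891 (+ strand). Capitals mark short motifs found on either strand. The letters searched were ATCAAAG for TCF/LEF factors. For ETS factors they were CCGGAA, and for GATA factors, with no match in these windows, AGATAA. No matches overlap.
Wnt11 start 1: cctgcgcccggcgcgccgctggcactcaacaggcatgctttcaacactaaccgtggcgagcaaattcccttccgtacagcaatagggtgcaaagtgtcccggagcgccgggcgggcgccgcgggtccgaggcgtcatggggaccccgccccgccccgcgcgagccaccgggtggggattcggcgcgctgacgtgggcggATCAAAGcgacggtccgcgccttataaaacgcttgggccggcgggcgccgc
Wnt11 start 2: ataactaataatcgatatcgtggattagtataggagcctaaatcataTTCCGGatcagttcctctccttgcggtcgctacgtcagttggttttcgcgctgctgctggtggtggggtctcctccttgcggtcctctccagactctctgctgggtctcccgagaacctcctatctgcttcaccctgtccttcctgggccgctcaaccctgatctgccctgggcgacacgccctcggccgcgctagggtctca
Wnt6: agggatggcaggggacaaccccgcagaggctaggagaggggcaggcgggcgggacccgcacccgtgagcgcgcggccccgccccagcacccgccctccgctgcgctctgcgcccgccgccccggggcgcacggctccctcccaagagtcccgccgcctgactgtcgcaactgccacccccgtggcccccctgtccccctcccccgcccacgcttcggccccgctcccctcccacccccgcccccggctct

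In the first Wnt11 window ATCAAAG lay 51 to 45 bases before the start, and 3.21% of all 32851 RefSeq windows of this length hold that motif. The second held 1 match to the ETS letters, found in 12% of all windows. None of the motifs was found in the Wnt6 window, which says only that these letters are not in it. Wnt11 start 1 and Wnt6 were both rich in CpG, the dinucleotide dense in many promoters that bear H3K4 methylation, with 37 and 28 CpG against a median of 6 over all windows. The windows of Wnt9b and Wnt4, 2 ligands that were not called, had 22 and 44. The second Wnt11 window had 16. Any relation of CpG number to the changes of the ligands was not tested. Wnt7b and Wnt5a had no matched window.

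Wnt5a, the ligand best known for beta-catenin-independent signalling, was the least abundant member per length in cKO and level with Wnt6 in controls. Its counts (Entrez Gene 22418) were 448, 392 and 483 in the controls, and 239, 216 and 170 in the cKO replicates. No cKO library reached the lowest control. Controls averaged 42.8 ± 5.06 CPM and cKO libraries 21.1 ± 3.80 CPM (SD, n = 3 each), 2.03-fold lower (log2 fold change -1.02, SE 0.234, edgeR adjusted p = 0.0497). This call was close to the threshold. It was lost without each library except cKO replicate 3, with adjusted p between 0.0906 (without cKO replicate 1) and 0.216 (without control replicate 3), although the fold change stayed between -1.14 and -0.90. Without cKO replicate 3 it was called with an edgeR adjusted p of 0.00341. Mesenchymal cells also make Wnt5a in the kidney. The 8 stroma markers together summed to 9.90 to 23.9 CPM in controls and 2.19 to 21.3 CPM in cKO, and none of 4 tested was called. The part of such cells in the Wnt5a values was not tested.

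Wnt9b, the stalk ligand that induces nephron formation, was not called. Its counts (Entrez Gene 22412) were 582, 977 and 681 in the controls, and 435, 551 and 424 in the cKO replicates. All cKO libraries lay below all controls, but control replicate 2 was well above the other controls. Controls averaged 72.2 ± 18.6 CPM and cKO libraries 47.6 ± 7.34 CPM (SD, n = 3 each; log2 fold change -0.60, SE 0.230, 95% interval -1.15 to -0.06, edgeR adjusted p = 0.179). That interval is for this gene alone and is not adjusted over genes. Without control replicate 2 the fold change was -0.39, and without cKO replicate 3 it was -0.53 (adjusted p = 0.0646).

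Wnt7b, which patterns the medulla from the stalk, was the second most abundant ligand per length and overlapped between the groups. Its counts (Entrez Gene 22422) were 1153, 1859 and 1463 in the controls, and 1668, 1705 and 1783 in the cKO replicates. Control replicate 1 was the lowest of all 6 libraries, and control replicate 2 lay at the level of the cKO libraries, with the most counts of all 6 but, once scaled, less than cKO replicate 3 (177 against 178 CPM). Controls averaged 144 ± 31.9 CPM and cKO libraries 174 ± 3.78 CPM (SD, n = 3 each; log2 fold change 0.27, SE 0.168, edgeR adjusted p = 0.408). The 95% interval of the difference, -0.13 to 0.67, leaves out a fall of the size seen for Wnt11.

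Wnt4, which drives mesenchymal cells into nephron epithelium and has also been described in collecting ducts, showed the smallest difference of the 6. Its counts (Entrez Gene 22417) were 478, 757 and 530 in the controls, and 569, 460 and 498 in the cKO replicates. The cKO values lay within or just below the range of the controls, and control replicate 2 was again the highest. Controls averaged 56.9 ± 13.3 CPM and cKO libraries 51.5 ± 5.93 CPM (SD, n = 3 each; log2 fold change -0.14, SE 0.213, 95% interval -0.65 to 0.36, edgeR adjusted p = 0.756). Without control replicate 2 the sign turned (0.0501, adjusted p = 0.949). Wnt4 is itself a marker of early nephron cells, and the early nephron list, which leaves it out, and the cap mesenchyme list both summed higher in every cKO library, as given above. Neither list moved together. The early nephron genes called were Ccnd2 and Jag1. Without a call, Pax8 (-0.26) and Bmp2 (-0.53) lay below 0, and Dll1 (0.76) and Cdh6 (0.24) above it. All but Ccnd2 were named after their values were seen. The part of such cells in the Wnt4 values was not tested.

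**Figure D2:**
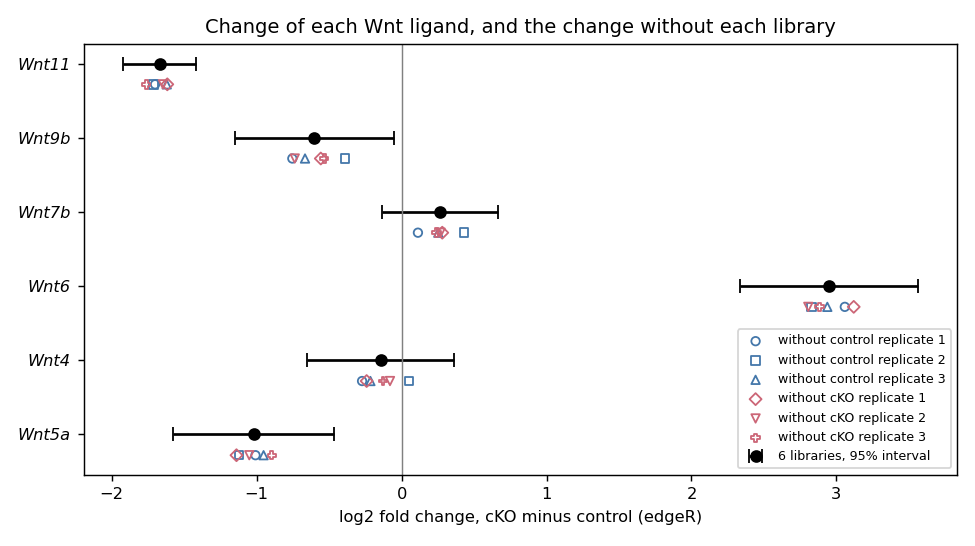
Log2 fold change of each ligand (cKO minus control, edgeR) with all 6 libraries as a black point with its 95% interval, and below it as open symbols the value without each library in turn. Wnt11, Wnt5a and Wnt9b stay below 0, Wnt6 and Wnt7b stay above 0, and Wnt4 crosses 0 without control replicate 2.

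Per length, the deposited FPKM values put the ligands in the order Wnt11, Wnt7b, Wnt4, Wnt9b, Wnt6, Wnt5a in controls. Wnt11 stood at 543 ± 30.4 FPKM and Wnt7b at 32.2 ± 7.40 FPKM, with no overlap. Wnt4 averaged 14.7 ± 3.60 FPKM and Wnt9b 12.4 ± 3.33 FPKM, and their ranges over the control libraries overlapped. Within each control library Wnt4 was the higher, at 12.1, 18.8 and 13.2 FPKM against 9.79, 16.2 and 11.3 FPKM for Wnt9b. Wnt6 (4.34 ± 0.651 FPKM) and Wnt5a (4.30 ± 0.457 FPKM) did not differ beyond their spread (SD, n = 3 for each). In cKO the order was Wnt11 (176 ± 19.3 FPKM), Wnt7b (39.9 ± 1.44), Wnt6 (34.6 ± 8.37), Wnt4 (13.6 ± 1.33), Wnt9b (8.40 ± 1.37) and Wnt5a (2.18 ± 0.366). Wnt6 had moved from the fifth place to the third, where its libraries overlapped those of Wnt7b.

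The summed FPKM of the 6 ligands was 580, 609 and 643 in the controls and 248, 277 and 298 in the cKO replicates, so cKO libraries had 0.449 of the control mean. Wnt11 made up 90.3%, 86.5% and 89.9% of that sum in the controls and 64.2%, 61.7% and 66.1% in the cKO replicates, a mean of 88.9% ± 2.09 against 64.0% ± 2.19 (SD, n = 3 each; exact two-sided permutation p = 0.1, the smallest possible here). It remained the most abundant ligand in every cKO library. Wnt6 held 0.714% ± 0.134 of the sum in controls and 12.5% ± 2.36 in cKO, and Wnt7b 5.27% ± 1.15 and 14.6% ± 0.831 (SD, n = 3 each). Shares of a sum are tied to each other, so a lower share of Wnt11 raises the rest.

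Without Wnt11, the 5 other ligands summed to 56.5, 82.4 and 65.0 FPKM in the controls and to 88.7, 106 and 101 FPKM in the cKO replicates, which is 1.45 times the control mean. The cKO libraries were all above the controls by this sum. Wnt6 held 6.66% ± 2.19 of it in controls and 34.7% ± 5.58 in cKO, while Wnt9b held 18.1% ± 1.30 and 8.51% ± 0.983 (SD, n = 3 each). The 6 members held 98.7% ± 0.357 of the FPKM of all Wnt ligands listed in controls and 96.9% ± 0.572 in cKO.

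**Figure D3:**
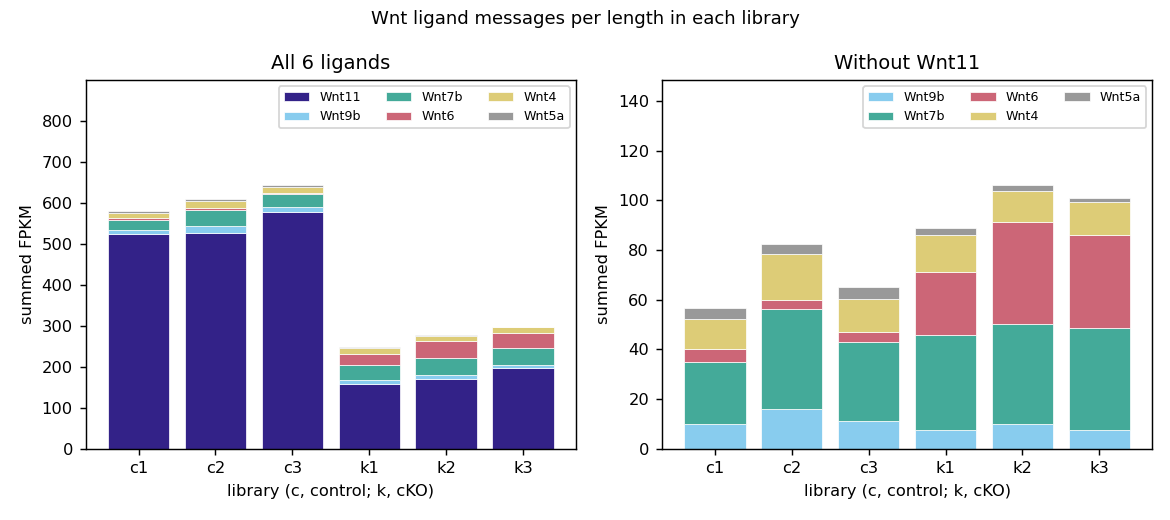
Summed FPKM of the ligands in each library (c, control; k, cKO), stacked by ligand, for all 6 on the left and without Wnt11 on the right. Wnt11 fills most of every bar on the left, and the Wnt6 block widens in all 3 cKO libraries on the right.

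Ratios between ligands within a library were compared because library scaling cancels in them. The log2 ratio of Wnt11 to Wnt7b was 3.39, 2.73 and 3.21 in the controls and 1.07, 1.10 and 1.27 in the cKO replicates, a mean difference of -1.96. That of Wnt11 to Wnt9b was 4.37, 3.66 and 4.31 in the controls and 3.00, 2.73 and 3.34 in the cKO replicates (-1.09). Neither ratio overlapped between the groups, so Wnt11 was lower relative to both stalk ligands. The log2 ratio of Wnt9b to Wnt7b was -0.98, -0.93 and -1.10 in the controls and -1.93, -1.63 and -2.07 in the cKO replicates (-0.87). These stalk ligands thus parted by more than the spread of either group, and in this ratio control replicate 2, high for each of them, did not stand out. Each of these 3 ratios had an exact permutation p of 0.1, the lowest possible, and 0.12 adjusted over the 6 ratios.

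Against the mean of 10 ureteric epithelium markers, 4 of which fell, Wnt7b had log2 ratios of -1.40, -0.77 and -1.17 in the controls and -0.26, -0.25 and 0.36 in the cKO replicates (mean difference 1.06, exact permutation p = 0.1). The same ratio for Wnt9b was -2.38, -1.70 and -2.27 in the controls and -2.19, -1.88 and -1.70 in the cKO replicates (0.19, exact permutation p = 0.5). Wnt7b was thus higher relative to these markers in every cKO library, while Wnt9b overlapped.

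**Figure D4:**
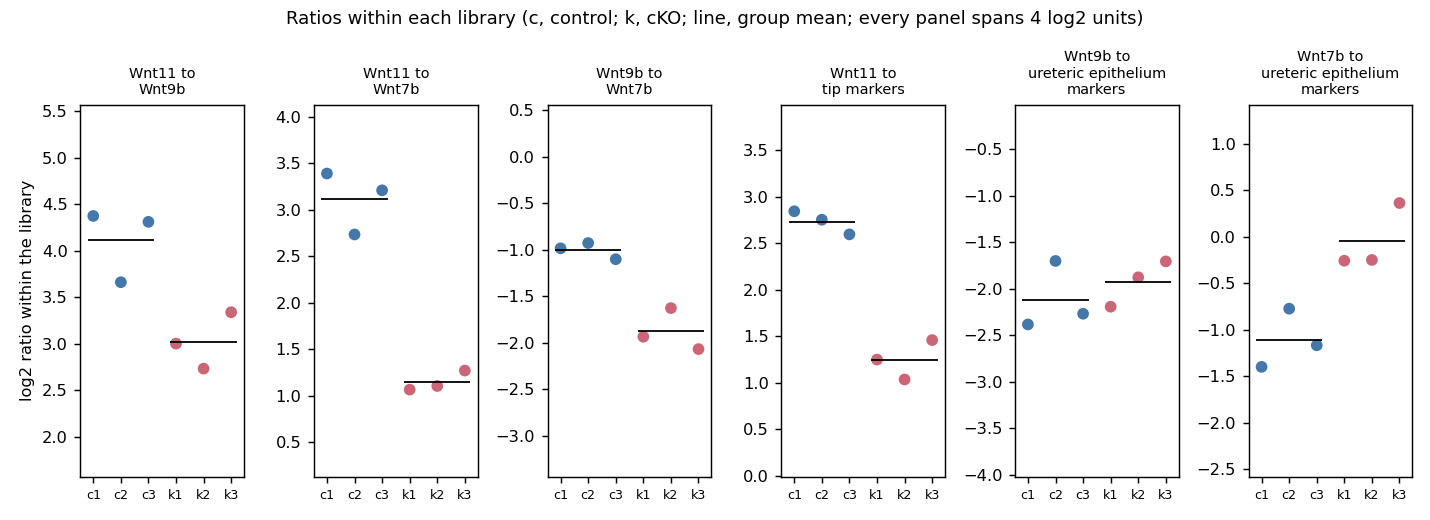
Log2 ratios within each library for the 6 ratios compared; blue points are controls (c1 to c3), red points cKO (k1 to k3), lines are group means, and all panels span the same number of log2 units. The groups separate in every panel but that of Wnt9b against the ureteric epithelium markers.

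The genes whose profiles over the 6 libraries came closest to each ligand were found by the root mean square (RMS) difference of mean-centred log2 CPM, among 12642 genes with a regular symbol. Nearest to Wnt11 was Cdca7, a Myc- and E2F-regulated gene of dividing cells (RMS difference 0.0898 log2 units; log2 fold change -1.70), before Sumo3, a ubiquitin-like modifier (0.144), and Gstt3, a glutathione transferase (0.146). Only 4 genes lay within 0.15 of Wnt11. Wnt6 was closest to Xaf1 (0.119), Esp8 (0.204) and Pgam2, a muscle phosphoglycerate mutase (0.282), and 1 gene lay within 0.15. Xaf1 had 4 to 7 counts in controls and 46 to 63 in cKO, and Esp8 none in controls and 12 to 19 in cKO, so these profiles rest on few reads. For Wnt5a the nearest were Arhgap19 (0.0378), B4galt6 (0.0653) and Bcl7c (0.0663). Those of Wnt9b were Tpbg, which encodes a Wnt-inhibitory membrane glycoprotein (0.0809), Rgs12 (0.112) and Rai1 (0.118). Wnt7b had Fosl2, an AP-1 factor (0.0518), Slc6a9 (0.0672) and Mcts2 (0.076), and Wnt4 had Rbm12b2 (0.0795), the receptor gene Notch2 (0.111) and Polr3d (0.111). Likeness over 6 libraries of 2 groups is a description of these libraries only.

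Most of the 13 other Wnt ligand genes were close to absent. Only 3 of them had enough counts to be tested, and none was called with 6 libraries. Wnt5b had 223, 113 and 185 counts in the controls and 4, 21 and 0 in the cKO replicates (log2 fold change -4.30, SE 1.31, edgeR adjusted p = 0.106). The 0 was in cKO replicate 3, the library with many missing genes, and without it Wnt5b fell (-3.73, SE 0.558, adjusted p = 0.000361). Wnt9a had 2, 11 and 4 counts in the controls and 71, 19 and 0 in the cKO replicates (adjusted p = 0.466), and it rose without cKO replicate 3 (3.03, SE 0.869, adjusted p = 0.0187). Wnt10a (adjusted p = 0.738) overlapped between the groups. Wnt8a had 122 counts in cKO replicate 3, 2 in cKO replicate 2 and 0 elsewhere. The remaining 9 had at most 14 counts in any library.

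Of 8 tested genes that load and release Wnt proteins, 1 rose and none fell, where 3.52% of all genes rose. Their median log2 fold change was -0.08 against -0.04 over all genes tested. The riser was Tmed5, a cargo receptor of the early secretory route, at 88.2 ± 8.18 CPM in controls and 142 ± 7.70 CPM in cKO (0.69, SE 0.119, adjusted p = 0.022). Its call held in 1 of 6 tests with a library left out, that without cKO replicate 3 (highest adjusted p 0.124). Wls, the carrier that takes lipidated Wnt proteins to the cell surface, averaged 440 ± 41.7 CPM over controls and 326 ± 32.8 CPM over cKO libraries, with no overlap (-0.43, SE 0.116, adjusted p = 0.0766), and it fell without cKO replicate 3 (-0.45, SE 0.120, adjusted p = 0.0127).

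Of 16 tested receptors and co-receptors 1 fell and none rose, where 3.59% of all genes fell. Their median log2 fold change was -0.97 (-0.70 without cKO replicate 3), against -0.04 over all genes. Fzd4, a Frizzled receptor, fell from 133 ± 2.67 to 68.7 ± 19.7 CPM (edgeR log2 fold change -0.96, SE 0.216, adjusted p = 0.0492). That call held in 2 of 6 tests with a library left out, without cKO replicate 1 or 3 (highest adjusted p 0.176). Fzd6, a Frizzled of planar polarity, averaged 37.9 ± 8.08 CPM over controls and 16.9 ± 7.14 CPM over cKO libraries (adjusted p = 0.121). Without cKO replicate 3, 9 of 16 fell and none rose, where 14.9% of all genes fell. Those 9, named after their values were seen, were Fzd2, Fzd4, Fzd6, Fzd7, Fzd8, Fzd9, Lrp5, Ptk7 and Ror2. They include a co-receptor of the beta-catenin route, Lrp5 (-1.92, SE 0.599, adjusted p = 0.0281), and a receptor for WNT5A, Ror2 (-1.90, SE 0.312, adjusted p = 0.000566). With 6 libraries Lrp5 overlapped between the groups (edgeR -0.98, adjusted p = 0.588), and Ror2 was not called (adjusted p = 0.312). Lrp6, the other co-receptor of that route and also named after its values were seen, was not among the 9. It averaged 29.7 ± 4.41 CPM over controls and 27.3 ± 8.17 CPM over cKO libraries (6 libraries, edgeR adjusted p = 0.857). Of the R-spondins, their LGR receptors and the ligases RNF43 and ZNRF3, none of 4 tested was called (Rnf43 at adjusted p = 0.207, Lgr4 at 0.415).

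Of 10 tested inhibitors 2 rose and none fell, where 3.52% of all genes rose. The list holds secreted antagonists and the membrane-bound DKK receptors Kremen1 and Kremen2. Sostdc1, a secreted antagonist of Wnt and BMP signals, rose from 54.8 ± 4.74 to 116 ± 5.86 CPM (edgeR log2 fold change 1.08, SE 0.128, adjusted p = 0.00786), a call that was lost only without control replicate 1 or 2 (highest adjusted p 0.0544). Notum, which removes the lipid from Wnt proteins, had 8, 14 and 15 counts in the controls and 153, 226 and 53 in the cKO replicates (3.60, SE 0.755, adjusted p = 0.0401, called in 1 of 6 tests with a library left out, that without cKO replicate 3). The list's median log2 fold change was -0.65 (-0.27 without cKO replicate 3), below 0 although its called members rose. Without cKO replicate 3, where 13.7% of all genes rose and 14.9% fell, 3 of the 10 rose and 4 fell. The third riser was Kremen2 (2.05, SE 0.232, adjusted p = 3.06e-05), and the falls were those of Dkk3, Sfrp2, Sfrp5 and Wif1, all 5 named after their values were seen.

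Among 15 core genes of the beta-catenin route 2 fell and none rose, where 3.59% of all genes fell. Without cKO replicate 3, 4 of 15 fell against 14.9%. Pygo1, a nuclear co-factor of beta-catenin, had 131, 86 and 125 counts in the controls and 0, 2 and 0 in the cKO replicates (edgeR adjusted p = 0.0243). Csnk1a1, a kinase that primes beta-catenin for degradation, fell from 662 ± 11.9 to 474 ± 41.0 CPM (a log2 change of -0.48, SE 0.0902, adjusted p = 0.0289). Each of these calls held in 1 of 6 tests with a library left out, that without cKO replicate 3 (highest adjusted p 0.133 for Pygo1 and 0.127 for Csnk1a1). Genes known as beta-catenin feedback targets rose in 5 of 12 cases and none fell, where 3.52% of all genes rose. Their median log2 fold change was 0.52 (0.27 without cKO replicate 3). Without cKO replicate 3 the counts were again 5 and none, where 13.7% of all genes rose.

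The target genes that rose were Tnfrsf19, a TNF receptor family gene, from 56.0 ± 5.19 to 143 ± 36.7 CPM (1.35, SE 0.206, edgeR adjusted p = 0.0156), Ccnd1, which encodes cyclin D1 (0.55, SE 0.0874, adjusted p = 0.0174), and, named after their values were seen, Lef1, Sp5 and Notum, which is also counted among the inhibitors. Lef1, a TCF/LEF factor, had 100, 92 and 179 counts in the controls and 326, 540 and 613 in the cKO replicates (2.05, SE 0.381, adjusted p = 0.0285). Sp5 had 5, 16 and 14 counts against 69, 150 and 500. The calls of Tnfrsf19, Ccnd1, Lef1 and Sp5 held in 2 of 6 tests with a library left out, those without cKO replicate 1 or 3, and the highest adjusted p among the other tests was 0.163 for Sp5 without control replicate 3. Axin2, the most widely used target of the route, had 45, 38 and 35 counts in the controls and 24, 53 and 40 in the cKO replicates, which overlap (0.05, SE 0.703, adjusted p = 0.981). Which ligand, if any, these genes answered to was not tested. None of 10 planar polarity genes was called (Vangl2, a core polarity gene, at -0.65, SE 0.200, adjusted p = 0.108, and Scrib at adjusted p = 0.511), and without cKO replicate 3, 2 of 11 fell, Vangl2 and Prickle3, the latter named after its values were seen. That count is close to the 14.9% of all genes that fell in the same test.

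**Figure D5:**
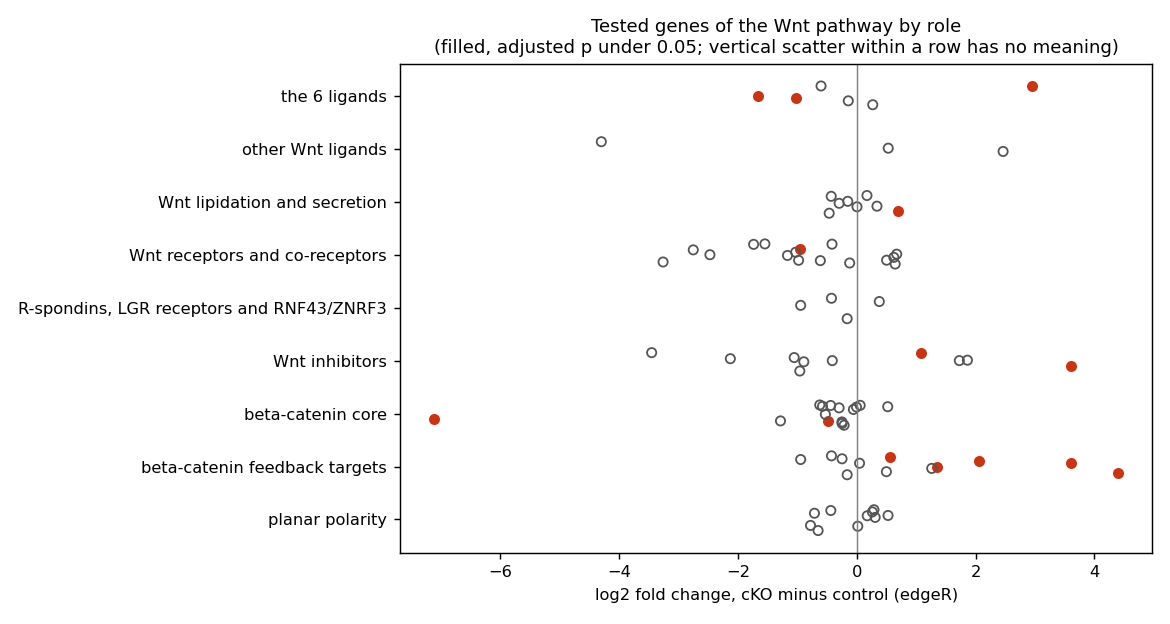
Log2 fold change (cKO minus control, edgeR) of every tested gene of the Wnt pathway lists, 1 row per role; filled red points passed an adjusted p under 0.05. Filled points in the feedback target row all lie above 0, and the leftmost filled point, in the core row, is Pygo1.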

How the data were processed

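The authors deposited raw read counts per gene and FPKM values for 6 libraries. Per the submitters' processing notes, the build was GRCm39 and the tools were HISAT2, HTSeq, Cufflinks and DESeq; roles and versions are not stated there. The library kit preserves strand, per the labels' protocols, but no source used here says whether counting used strand. Reads of an overlapping antisense gene may therefore be included. RefSeq lists noncoding genes overlapping Wnt11, Wnt7b and Wnt6. It also lists the protein-coding gene Wnt3, with 5 counts in total, as overlapping Wnt9b. Deposited FPKM values equal the counts divided by a length per gene and a factor per library (largest relative deviation 2.21e-07), so they are no second measurement.

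Counts were filtered with filterByExpr (13047 of 17189 genes) and tested with edgeR 4.0.16 in R 4.3.3 (TMM factors, robust quasi-likelihood F-test, group as the only term, Benjamini-Hochberg adjustment). SE is the size of the log2 fold change over the square root of F. Log2 CPM for ratios and likeness used a prior count of 2. Alternatives used DESeq2 1.42.0 and limma 3.58.1. Steps were tested on simulated counts. Every pair of replicates differed beyond sampling noise (chi-square over its degrees of freedom 9.95 to 72.3).

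Genes named were the 6 ligands, the 2 genes with the smallest p of each pathway list, the 3 nearest profiles of each ligand, Ret and Gfra1, and further genes where stated. Axin2 and Wnt10a were also chosen after their values were seen. The members and lists were chosen with earlier results of these data known. Counting error is only part of the error, since PCR copies are not independent molecules. Rspo4, Dkk4, Sost and Umod were not analysed here.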

Additional observations from a re-analysis of the deposited data

How the results depend on the processing

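Wnt11 was called under all 18 alternatives (log2 fold change -1.76 to -1.62, highest adjusted p 0.0491). Wnt6 was called under 17 of 18; with a replicate block its fold change was 2.93 with an adjusted p of 0.0554. Wnt9b and Wnt7b were called under none of 18 (lowest edgeR adjusted p 0.0646 and 0.261), nor was Wnt4, whose value ran from -0.27 to 0.0501 with a library left out and turned sign without control replicate 2. Wnt5a was called under 7 of 18. It lost its call with library totals only (-0.98), with no filter on low counts (-1.01) and with the replicate block (-1.03). The call was also lost with limma on log2(FPKM + 1) with or without the filter (-0.74), a scale that shrinks the changes of low genes. With limma on log2(FPKM + 0.1) it was lost too (-0.96, limma adjusted p = 0.105). Why these calls were lost was not tested. Leaving out a library gave -1.14 to -0.90 for Wnt5a.

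Over all genes 459 rose and 469 fell. The DESeq2 test gave 1029 and 1020, limma-voom with library weights 1607 and 1756, and limma on log2(FPKM + 1) 696 and 709. The replicate block gave 12 and 11. Correlations of same-numbered libraries' deviations lay between -0.02 and 0.02, and not every library correlated best with its own number. With 3 libraries per group these values cannot tell whether same-numbered libraries share more than a number, and the labels name no batch. Leaving out a library gave 62 to 1865 rises and 59 to 2032 falls, the highest without cKO replicate 3. Without that library 28.5% of all genes were called. Beside that share, the list members called were 2 of 3 tested other Wnt ligands, 2 of 8 secretion genes, 9 of 16 receptors, 1 of 5 in the R-spondin group, 7 of 10 inhibitors, 4 of 15 core genes and 2 of 11 polarity genes. Those of the secretion, R-spondin, core and polarity lists were below it. No ratio between ligands or to markers changed sign. Depth limits most the 10 other Wnt ligands that were not tested and the low target genes, where the floor of 3 counts is 0.285 to 0.307 CPM. The causes of these shifts were not tested.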

Other observations

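The nearest protein-coding genes beside the called ligands, by RefSeq gene order (GRCm38.p6, used for order only), were examined after the ligands' values were seen. Beside Wnt6 lie Wnt10a and Prkag3. Wnt10a, another Wnt ligand, had 70, 63 and 46 counts in the controls and 60, 155 and 32 in the cKO replicates (log2 fold change 0.53, SE 0.725, edgeR adjusted p = 0.738), while Wnt6 was 7.71-fold higher in cKO. Prkag3 had 0, 6 and 0 counts against 32, 31 and 0 and was not tested with 6 libraries. Without cKO replicate 3, the library with many missing genes, Prkag3 rose (edgeR log2 fold change 3.96, SE 1.16, adjusted p = 0.0204). That was the only call in the 4 tests with a library left out in which it passed the filter (highest adjusted p 0.702). The difference between Wnt6 and its neighbours was not tested.

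Beside Wnt11 lie Thap12 and Uvrag. Thap12 fell from 184 ± 12.9 to 92.9 ± 24.5 CPM (SD, n = 3 each; edgeR log2 fold change -0.99, SE 0.206, adjusted p = 0.0399), a call that held without cKO replicate 1 or 3 and was lost in the other 4 of 6 tests with a library left out (highest adjusted p 0.153). Uvrag, which encodes an autophagy protein, averaged 24.3 ± 5.05 CPM over controls and 42.0 ± 6.83 CPM over cKO libraries (0.79, SE 0.249, adjusted p = 0.116), and it rose without cKO replicate 3 (0.66, adjusted p = 0.0341). Beside Wnt5a, Erc2 was not called (adjusted p = 0.648) and Cacna2d3 had at most 22 counts in any library.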
